A study of Mus musculus with 12 samples.

Results

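The 10 genes described here encode MYB, MYC, its partner MAX and its antagonist MXI1. They also encode the globin switching factors BCL11A, ZBTB7A, SOX6, IKZF1, NR2C1 and NR2C2. They were chosen by name among 29838 genes in a table of RNA sequencing values. The study sorted erythroblasts, the nucleated precursors of red cells, out of bone marrow taken from male C57BL/6 mice of 8 weeks labelled WT, and sequenced 3 libraries each of Pro (proerythroblasts), Baso (basophilic), Poly (polychromatic) and Ortho (orthochromatic) cells to follow gene expression through terminal differentiation. All groups shared strain, sex, age, genotype and the absence of any treatment, and were defined by the sorting gate. Mouse, day and sorting batch are not given in the sources used here, so a difference in handling between stages cannot be told apart from stage. CD45- cells were enriched with beads and then gated as 7-AAD negative (live) and negative for CD45, CD11b and GR1, a gate meant to remove leukocytes and myeloid cells. Within it, Pro cells were taken as CD44 high Ter119 low, and the later stages were gated by CD44 and cell size among Ter119+ cells. Ortho replicates 2 and 3 carried only a general erythroblast label as cell type and were grouped by their titles. No source used here says whether the libraries of a stage came from separate mice, so the p-values measure the spread between libraries, which may be technical.

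MYB is a transcription factor that keeps hematopoietic progenitors proliferating, and its loss or reduction in human erythroid cells is known to go with higher fetal globin. MYC binds DNA as a dimer with MAX and activates genes of ribosome production and growth, whereas MXI1 and the other MXD proteins take the place of MYC on MAX and repress. The globin switching factors silence embryonic and fetal globin genes in adult red cells. BCL11A and ZBTB7A (also called LRF) recruit the NuRD corepressor complex, SOX6 acts with BCL11A on the embryonic beta-like gene Hbb-y, IKZF1 (Ikaros) is a zinc finger factor of blood cells, and NR2C1 and NR2C2 (the orphan receptors TR2 and TR4) bind direct repeats in embryonic globin promoters as a heterodimer. Mice have no fetal stage globin of the human kind, so the genes kept silent in adult mouse cells are the embryonic Hbb-y, Hbb-bh1 and Hba-x.

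The globin promoters are shown first because BCL11A and ZBTB7A are best known through them. The stretches come from RefSeq (GRCm38.p6) and run 5′ to 3′ on the gene's strand. In the globin promoters capitals mark TGACCA (the letters of the BCL11A motif), CCAAT (the CCAAT box) and CCNCNCCC (a CACCC-type letter pattern that Kruppel-like factors can bind, N being any base), each on either strand. In the last pair of stretches capitals mark CCNCNCCC, and in Zbtb7a also AGATAA, a form of the GATA motif.
Hbb-y, embryonic, chr7:103853238-103853337, minus strand: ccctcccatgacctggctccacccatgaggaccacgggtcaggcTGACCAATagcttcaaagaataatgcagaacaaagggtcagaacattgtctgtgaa
Hba-x, embryonic, chr11:32276470-32276569, plus strand: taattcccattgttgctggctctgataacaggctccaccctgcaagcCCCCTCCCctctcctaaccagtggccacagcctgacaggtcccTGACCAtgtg
Hbb-bs, adult, chr7:103827959-103828058, minus strand: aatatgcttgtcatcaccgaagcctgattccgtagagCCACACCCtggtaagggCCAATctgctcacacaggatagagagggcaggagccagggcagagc
Hbb-bt, adult, chr7:103813954-103814053, minus strand: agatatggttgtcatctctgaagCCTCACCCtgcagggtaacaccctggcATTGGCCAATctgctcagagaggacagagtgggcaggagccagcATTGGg
Hba-a1, adult, chr11:32283542-32283641, plus strand: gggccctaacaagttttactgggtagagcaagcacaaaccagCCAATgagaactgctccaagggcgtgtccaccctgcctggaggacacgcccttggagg
Bcl11a, chr11:24080585-24080684, plus strand: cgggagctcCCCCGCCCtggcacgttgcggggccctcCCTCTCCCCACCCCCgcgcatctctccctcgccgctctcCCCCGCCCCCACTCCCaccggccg
Zbtb7a, chr10:81136141-81136240, plus strand: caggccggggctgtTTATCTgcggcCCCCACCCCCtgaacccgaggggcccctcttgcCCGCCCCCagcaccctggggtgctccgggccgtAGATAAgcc

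In the 250 bases before the start, TGACCA was found in Hbb-y and in Hba-x, and in none of the adult genes Hbb-bs, Hbb-bt, Hba-a1 and Hba-a2. Embryonic Hbb-bh1 had no promoter in the source used and was not searched. In Hbb-y its first base lay at position -86 and it overlapped the CCAAT box. Of all 32851 promoters searched the same way, 11.4% held TGACCA, 33.8% CCAAT, 45.9% CCNCNCCC and 9.99% AGATAA. Among the 10 genes themselves, 9 had a promoter in the table, with 17 start sites, and none of these sites held TGACCA. The E-box CACGTG, to which MYC with MAX binds, was likewise in none of the 17 and in 6.02% of all promoters. Bcl11a held 8 matches to CCNCNCCC, some of them overlapping, Zbtb7a 7 and Mxi1 7 over 3 start sites, and the other members held fewer. The number of matches was not compared with that in all promoters. A match describes the letters only and is not evidence of binding.

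The table gives FPKM (fragments per kilobase of transcript, scaled to the mapped fragments), so levels can be compared between genes per length. Each value depends on all other transcripts sequenced in the same library, and hemoglobin genes took 8.44% ± 1.95 of the FPKM sum at the Pro stage, then 35.1% ± 1.79 in Baso, 36.6% ± 1.56 in Poly and finally 49.6% ± 2.74 in Ortho (SD, n = 3). Differences are log2 fold changes of FPKM + 1 from limma, a linear model fitted to all genes and all 12 libraries, with Benjamini-Hochberg adjusted p, and a gene passed the test at an adjusted p under 0.05. The median difference over the 12994 genes tested was -0.23 in Baso vs Pro, 0.03 in Poly vs Baso, -0.08 in Ortho vs Poly and -0.42 in Ortho vs Pro. Leaving out the hemoglobin genes and rescaling brought the last to -0.03, centring each library on its median also to -0.03, and rescaling to the same sum to -0.72. Of the genes that passed in Ortho vs Pro, 29.9% were higher as deposited, 49.7% without hemoglobin, 49.3% after centring and 18.9% at the same sum. Pearson correlations of log2 values were 0.973 to 0.984 between libraries of the same stage and 0.846 to 0.976 between stages. The depth of the libraries is unknown.

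Markers of the cells sorted were present in every stage, since 7 of the 8 erythroid genes listed (Gata1, Klf1, Epor and others) were matched and summed to 1804 to 2387 FPKM in Pro and 4686 to 5026 in Ortho. Transcripts that mark other marrow cells were also there and moved with stage, although the gate was negative for CD45, CD11b and GR1. Beside the counts below, 22.7% of all genes tested were higher and 53.2% lower in Ortho vs Pro. Neutrophil markers (Ngp, Camp, S100a8 and others) summed to 6835 to 8541 FPKM in Pro and 13412 to 16669 in Ortho, with 7 of 8 higher in Ortho vs Pro. B cell markers (Cd79a, Pax5, Vpreb3 and others) summed to 85.6 to 144 in Pro and 203 to 284 in Ortho, with 10 of 10 higher. Markers of plasmacytoid dendritic cells summed to 90.4 to 126 in Pro and 206 to 234 in Ortho, with 6 of 6 higher. Stem and progenitor markers summed to 46.4 to 47.9 in Pro and 72.7 to 78.9 in Ortho, with 4 of 6 higher. Megakaryocyte markers went the other way, from 68.1 to 123 in Pro down to 37.1 to 46.3 in Ortho, with 4 of 6 lower and 1 higher. T and NK cell markers summed to 24.0 to 33.5 in Pro and 42.4 to 46.5 in Ortho. Of the 6 listed, 3 were tested and these 3 were higher, while Cd3d, Cd3e and Cd3g never reached 1 FPKM. Macrophage markers summed to 5.88 to 8.82 in Pro and 10.5 to 12.6 in Ortho. Of the 6 listed, 2 were tested and 1 was higher, and C1qb, C1qc and Mrc1 never reached 1 FPKM. The part of these transcripts in the results below was not tested.

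The courses of the 10 genes differed. Bcl11a and Ikzf1 were lower from Baso on, Nr2c1 was lower in Baso than in Pro, Myc was lower in Baso with overlapping spreads afterwards, Sox6 and Mxi1 were higher from Baso on, and Zbtb7a and Nr2c2 were lower at the Ortho stage. Myb was higher in Ortho than in Pro, and Max passed no test. In Baso vs Pro 2 of the 10 were higher and 4 lower, where 14.9% of all genes tested were higher and 42.1% lower. In Poly vs Baso none was higher and 1 was lower, against 6.58% and 5.77% of all genes. In Ortho vs Poly none was higher and 4 were lower, against 4.43% and 21.7% of all genes. Over the whole course, Ortho vs Pro, 3 were higher and 5 lower, against 22.7% and 53.2% of all genes. When a log2 fold change of 1 or more in size was also required, the counts of higher and lower members were 1 and 1 in Baso vs Pro (all genes 1.82% and 8.54%), none in Poly vs Baso (0.0616% and 0.454%), 0 and 1 in Ortho vs Poly (1.05% and 4.81%) and 0 and 3 in Ortho vs Pro (6.33% and 23.8%). For the whole course these shares lie near those of all genes, so the counts are no result about the 10 genes, and values are given gene by gene.

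**Figure D1:**
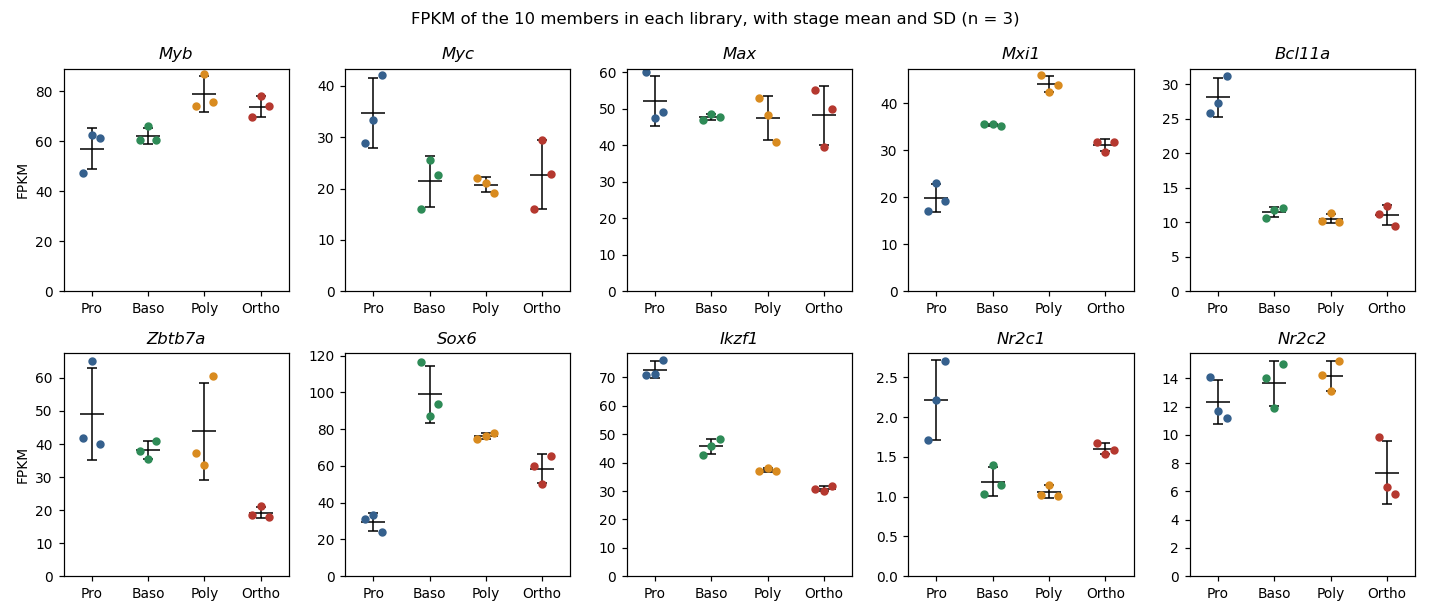
FPKM (linear axes from 0, scales differ between panels) of the 10 genes in each of the 12 libraries by stage, with the stage mean and SD as bars (n = 3). Bcl11a drops from 25.8 to 31.2 FPKM in Pro to 12.1 or less in every Baso library, and Sox6 goes from at most 33.5 in Pro to at least 87.3 in Baso.

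Myb (chr10:21124935-21160984, minus strand, mm10) stayed among the higher genes at every stage. It was at 47.5, 62.5 and 61.4 FPKM in the Pro libraries 1 to 3, then 60.6, 66.0 and 60.4 in Baso, 74.0, 87.2 and 75.6 in Poly and finally 69.6, 78.0 and 74.0 in Ortho. Every Poly and Ortho library was above every Pro and Baso library, while Pro and Baso overlapped, as did Poly and Ortho. Its mean exceeded that of 88.8% of the tested genes in Pro and of 94.5% in Ortho. The log2 fold change was 0.37 ± 0.11 (SE) in Ortho vs Pro (adjusted p = 0.00731), with a mean of 73.9 ± 4.18 FPKM against 57.1 ± 8.34 (SD, n = 3). The call rested on scaling, since the difference was 0.01 (adjusted p = 0.925) with libraries rescaled to the same sum and 0.86 (adjusted p = 2.6e-05) without the hemoglobin genes. Without Ortho replicates 2 and 3 it was 0.29 (adjusted p = 0.141), and in that fit, here and for the other genes, 1 Ortho library is left and is assumed to vary like those of the other stages. In Baso vs Pro Myb did not pass as deposited (adjusted p = 0.304), but it passed without the hemoglobin genes at 0.44 (adjusted p = 0.00532) and after centring at 0.43 (adjusted p = 0.00776), and was -0.044 at the same sum. Ortho vs Poly passed at the same sum alone among the scalings, at -0.28 (adjusted p = 0.0399). In Poly vs Baso the difference was 0.33 (adjusted p = 0.0641). It passed with a replicate block, at an adjusted p of 0.00595 in a fit of the 3 later stages and of 0.0255 in the fit of all libraries. Summed neutrophil, B cell and progenitor markers were also higher in Poly and Ortho than in Pro. They were already higher in Baso, where Myb did not pass as deposited. In Baso vs Pro 7 of 8 neutrophil, 6 of 10 B cell and 3 of 6 progenitor markers were higher, and none was lower. Their part in the levels of Myb was not tested. In bulk samples, fewer cells of a type and less RNA per cell cannot be told apart.

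Among the MYB paralogs, Mybl2 (B-MYB, a cell cycle factor) and Mybl1 (A-MYB) each had a course of its own. Mybl2 was at 73.3 to 92.0 FPKM in Pro, then 59.0 to 66.4 in Baso, 69.4 to 73.1 in Poly and finally 20.4 to 22.6 in Ortho. It fell by 1.71 on the log2 scale in Ortho vs Poly (adjusted p = 8.98e-08) and was lower there under every scaling. Mybl1 was low, with a mean of 0.851 FPKM in Pro, then 1.12 in Baso, 3.15 in Poly and finally 1.54 in Ortho. It rose by 0.97 in Poly vs Baso (adjusted p = 0.00309) and fell by 0.72 in Ortho vs Poly (adjusted p = 0.00255).

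Of 8 genes often linked to MYB in progenitors, 2 were higher and 3 lower in Ortho vs Pro, with a median log2 fold change of -0.21 beside -0.42 over all genes. Among all genes tested, 22.7% were higher and 53.2% lower. Klf1, the Kruppel-like factor that activates adult beta globin, was at 301 to 346 FPKM in Pro and 60.7 to 73.6 in Ortho, and fell by 2.06 in Ortho vs Poly (adjusted p = 2.46e-08). Ccnb1 (cyclin B1) fell by 1.76 at the same step (adjusted p = 1.83e-08). The split was 2 and 5 at the same sum and 3 and 2 under the other scalings, where the median turned to 0.27 without the hemoglobin genes and to 0.19 after centring. Cdk6, a G1 kinase, differed by -0.37 in Ortho vs Pro as deposited (adjusted p = 0.0185), but by 0.098 without the hemoglobin genes (adjusted p = 0.506) and 0.026 after centring (adjusted p = 0.861), so no direction is given. Cd34, a progenitor surface protein, and Bcl2, a survival factor, were the higher ones, at 0.89 and 0.70 in Ortho vs Pro. Cd34 is also among the stem and progenitor markers above. Kit (-0.28), Lmo2 (-0.14) and Gfi1 (0.37) did not pass in Ortho vs Pro.

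Myc (chr15:61985391-61990374, plus strand) was highest in Pro. The Pro libraries held 28.8, 33.3 and 42.1 FPKM, the Baso libraries 16.0, 25.6 and 22.6, the Poly libraries 22.0, 21.2 and 19.2, and the Ortho libraries 16.0, 29.5 and 22.8. All Pro values lay above all Baso and Poly values, while 1 Ortho library overlapped Pro. Myc was lower in Baso vs Pro by -0.68 ± 0.22 (SE, adjusted p = 0.0188) and in Ortho vs Pro by -0.61 ± 0.22 (adjusted p = 0.0227), and neither later step passed. The calls were not firm. Without Pro replicate 3 the first was -0.54 (adjusted p = 0.0790) and without Baso replicate 1 it was -0.49 (adjusted p = 0.0828), and the second was -0.47 without Pro replicate 3 and -0.39 without Ortho replicate 1 (adjusted p = 0.0940 and 0.103). Without the hemoglobin genes the differences were -0.38 and -0.14 and with centred libraries -0.39 and -0.22, and none of these passed. With no filter on low values, the adjusted p were 0.0677 and 0.0732.

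Max (chr12:76937269-76962201, minus strand), the common partner of MYC and of its antagonists, was at 60.0, 47.4 and 49.1 FPKM in Pro, then 46.9, 48.5 and 47.8 in Baso, 53.1, 48.3 and 41.0 in Poly and finally 55.2, 39.5 and 49.9 in Ortho. The libraries of all 4 stages overlapped. As deposited, Ortho vs Pro differed by -0.12, with a 95% interval from -0.41 to 0.17. That sign turned with the scaling, to 0.37 without hemoglobin genes (adjusted p = 0.022) and to -0.48 at the same sum (adjusted p = 0.011), so no direction is given for Max.

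Mxi1 (MXD2, chr19:53310518-53375810, plus strand), which represses as a dimer with MAX, was at 17.2, 23.2 and 19.2 FPKM in Pro, then 35.5, 35.6 and 35.2 in Baso, 46.0, 42.5 and 43.9 in Poly and finally 31.8, 29.6 and 31.9 in Ortho. No pair of stages overlapped, and the order was Poly, Baso, Ortho, Pro. It rose by 0.81 ± 0.09 (SE) in Baso vs Pro (adjusted p = 2.6e-05) and was lower in Ortho vs Poly by -0.49 ± 0.09 (adjusted p = 0.00175), both under every scaling. The intermediate step, 0.31, had an adjusted p of 0.0527, or 0.00912 with the replicate block among the 3 later stages and 0.0671 with that block in the fit of all libraries. At the last step the difference without Ortho replicates 2 and 3 was -0.46 (adjusted p = 0.0601), from the 1 Ortho library left. In Pro the mean of Myc was 34.7 ± 6.74 FPKM beside 19.9 ± 3.04 for Mxi1, and in Poly it was 20.8 ± 1.43 beside 44.1 ± 1.76 (SD, n = 3).

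**Figure D2:**
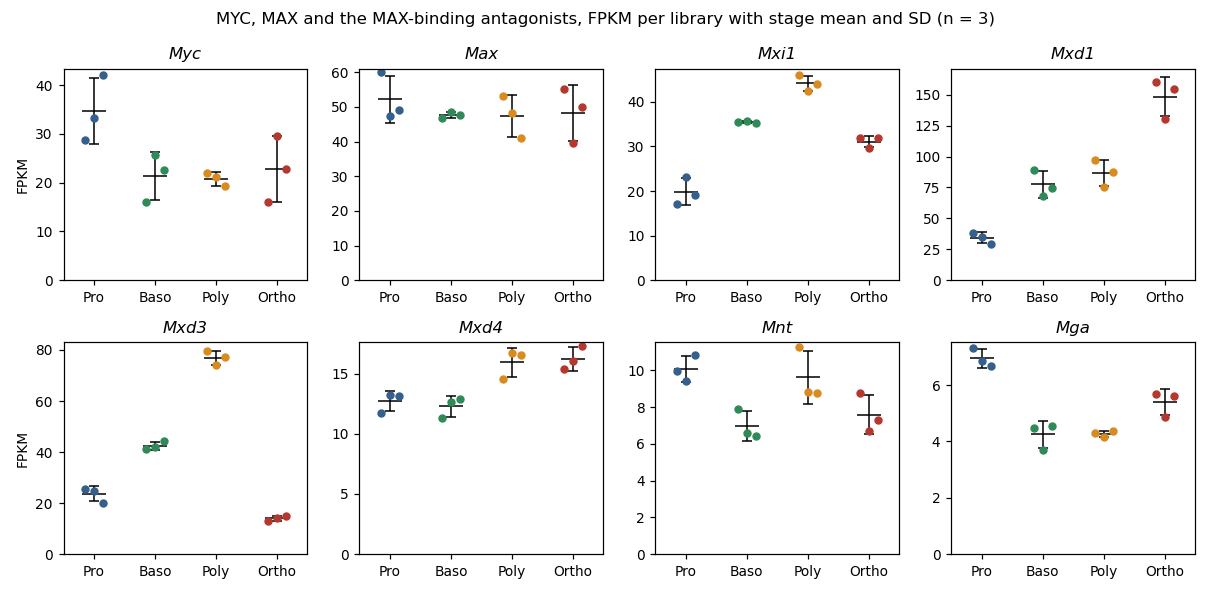
FPKM (linear axes from 0, scales differ between panels) of Myc, Max and 6 genes whose proteins bind MAX as alternatives to MYC, in each library by stage with the stage mean and SD (n = 3). Mxd1 climbs from at most 38.3 FPKM in Pro to at least 130 in Ortho, and Mxd3 peaks in Poly at 74.1 to 79.5.

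Of 10 further genes of the MYC and MAX network, 8 were tested, and in Ortho vs Pro 4 were higher and 3 lower, beside 22.7% and 53.2% of all genes. The split became 4 and 0 without hemoglobin genes, 4 and 1 after centring and 2 and 4 at the same sum, around a median of 0.03 as deposited. Mxd1 (MAD1), an MXD repressor tied to differentiation, was at 38.3, 35.3 and 29.5 FPKM in Pro, then 89.4, 68.1 and 74.6 in Baso, 96.8, 75.4 and 87.7 in Poly and finally 160, 130 and 155 in Ortho. It rose by 1.15 in Baso vs Pro (adjusted p = 3.03e-05) and by 0.77 in Ortho vs Poly (adjusted p = 0.000951), higher under every scaling at both steps. Mxd3 (MAD3), which is known from dividing cells, rose by 0.83 in Baso vs Pro and by 0.84 in Poly vs Baso, and then fell by 2.37 in Ortho vs Poly (adjusted p = 1.5e-08). Its means were 23.6, 42.4, 76.9 and 14.1 FPKM from Pro to Ortho. The Myc paralogs were low, Mycl with 0.710 to 1.36 FPKM in Pro and 1.82 to 2.87 in Ortho (0.74, adjusted p = 0.000991), and Mycn between 0.488 and 1.20 in all libraries and not tested. Mlxipl never exceeded the filter, and Mlx (-0.28 in Ortho vs Pro) did not pass.

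Genes that MYC is known to activate were mostly lower after the Pro stage. The list was chosen with earlier results of these data known, and a link to the level of Myc was not tested. Of the 24 genes, 21 were lower and 1 was higher in Baso vs Pro, with a median log2 fold change of -1.31 beside -0.23 over all genes. Of all genes tested, 42.1% were lower in Baso vs Pro and 53.2% in Ortho vs Pro. In Poly vs Baso 1 was lower and none higher (median -0.04), and in Ortho vs Pro 23 were lower and 1 higher (median -1.43 beside -0.42). Under the other scalings 21 to 22 were lower in Baso vs Pro and 21 to 23 in Ortho vs Pro. Over all genes (12988 or 12994 tested), 3053 to 6663 were then lower in Baso vs Pro and 4520 to 8234 in Ortho vs Pro. Npm1 (nucleophosmin) had means of 471 FPKM in Pro, then 168 in Baso, 163 in Poly and finally 165 in Ortho, and fell by 1.48 in Baso vs Pro (adjusted p = 1.64e-06). Nop56, a box C/D snoRNP protein, was the most changed in Ortho vs Pro at -2.09 (adjusted p = 3.09e-08), with Nme1, a nucleoside diphosphate kinase, at -2.02. Eif4a1, the translation initiation helicase, was at -1.03 in Baso vs Pro (adjusted p = 1.7e-05) and Ldha, lactate dehydrogenase A, at -0.82 (adjusted p = 9.66e-06). Ldha in Ortho vs Pro was -0.49 as deposited but 0.00 without the hemoglobin genes. Odc1, ornithine decarboxylase of polyamine synthesis, was the exception that rose in Baso, by 0.61 (adjusted p = 0.00253), and it fell by 0.96 in Ortho vs Poly (adjusted p = 0.000216). Nme2 was the exception over the whole course, at 0.71 in Ortho vs Pro (adjusted p = 0.000343), and its neighbour Nme1 is a close paralog, so reads between them may be split by the counting. The call for Myc itself at the first step was lost without the hemoglobin genes, after centring and without Baso replicate 1, among other settings given above.

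**Figure D3:**
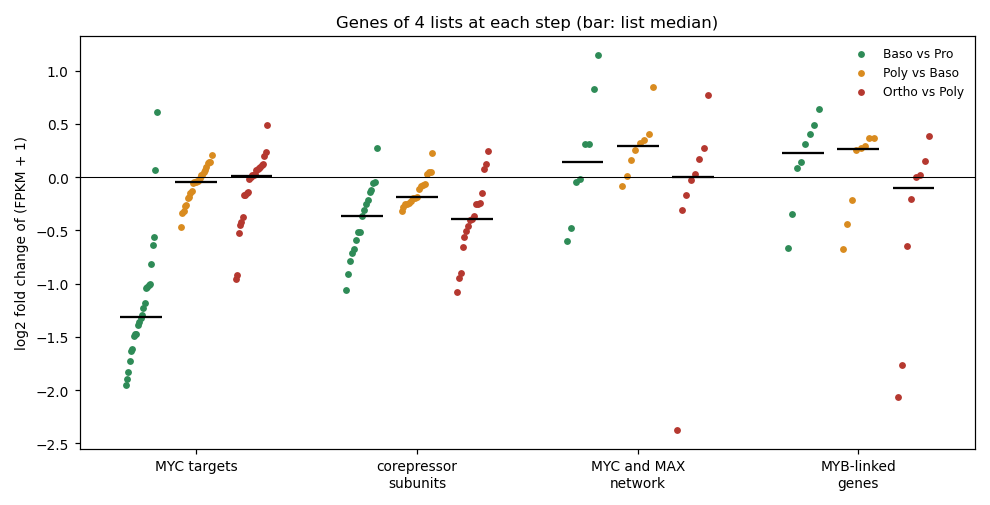
Log2 fold change of FPKM + 1 (linear axis, limma) of each tested gene of 4 lists at the steps Baso vs Pro, Poly vs Baso and Ortho vs Poly, with the list median as a bar. The 24 MYC targets sit at a median of -1.31 in the first step and near 0 afterwards, while the 17 corepressor subunits have medians below 0 at all steps.

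Bcl11a (chr11:24078056-24174123, plus strand) was lower after the Pro stage and did not differ measurably between the later stages. Its values were 25.8, 27.3 and 31.2 FPKM in Pro, then 10.7, 11.7 and 12.1 in Baso, 10.2, 11.3 and 10.1 in Poly and finally 11.2, 12.3 and 9.50 in Ortho. All Pro libraries lay above all others, which overlapped among themselves. It fell by 1.22 ± 0.11 (SE) in Baso vs Pro (adjusted p = 4.59e-06), and the mean in Pro was 2.44 times that in Baso. Poly vs Baso differed by -0.12 (95% interval -0.35 to 0.11) and Ortho vs Poly by 0.06 (-0.17 to 0.29). The drop in Baso held under every scaling (-1.39 to -0.91) and without any of the libraries. B cells and plasmacytoid dendritic cells also express Bcl11a, and their summed markers had means in Pro, Baso and Ortho of 107, 172 and 252 FPKM for B cells and of 109, 139 and 222 for plasmacytoid dendritic cells. Their part in the levels of Bcl11a was not tested.

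Zbtb7a (chr10:81135220-81152995, plus strand) was at 41.9, 65.0 and 40.1 FPKM in Pro, then 37.9, 35.4 and 41.1 in Baso, 37.4, 33.6 and 60.6 in Poly and finally 18.4, 21.2 and 18.0 in Ortho. Pro, Baso and Poly overlapped, with 1 high library each in Pro and Poly, and all Ortho libraries were below all others. It fell by 1.10 ± 0.21 (SE) in Ortho vs Poly (adjusted p = 0.00206), and the Ortho mean was 39.2% of the Pro mean. Without the high Poly replicate 3 the difference was -0.85 (adjusted p = 0.00986), and the call held under every scaling. Neither of the earlier steps passed.

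Sox6 (chr7:115470872-116038796, minus strand) was at 31.2, 33.5 and 24.2 FPKM in Pro, then 117, 87.3 and 93.5 in Baso, 74.5, 76.3 and 78.0 in Poly and finally 60.2, 50.0 and 65.3 in Ortho. No pair of stages overlapped, and the order was Baso, Poly, Ortho, Pro. It rose by 1.71 ± 0.14 (SE) in Baso vs Pro (adjusted p = 3.55e-06), a 3.34-fold higher mean, and kept a difference of 0.96 in Ortho vs Pro (adjusted p = 6.38e-05). Both passed under every scaling and without any of the libraries. Each later step was lower without passing, -0.36 (adjusted p = 0.11) and -0.39 (adjusted p = 0.0646), and with the replicate block among the 3 later stages both passed (adjusted p = 0.0457 and 0.0271), while with that block in the fit of all libraries neither did (adjusted p = 0.117 and 0.0763).

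Ikzf1 (chr11:11685003-11772926, plus strand) was at 70.8, 71.2 and 76.2 FPKM in Pro, then 42.9, 45.9 and 48.3 in Baso, 36.9, 38.2 and 37.2 in Poly and finally 30.9, 30.0 and 31.6 in Ortho. It was the member that was lower at every step, and no stages overlapped. The differences were -0.66 ± 0.06 (SE, adjusted p = 9.17e-06), -0.28 (adjusted p = 0.0209) and -0.27 (adjusted p = 0.00761), and -1.21 over the whole course (adjusted p = 2.89e-08). Ortho vs Pro and Baso vs Pro passed under every scaling. The intermediate call was lost, with adjusted p between 0.0523 and 0.0798, without Baso replicate 2 or 3 or any Poly library. Ortho vs Poly was -0.13 (adjusted p = 0.132) without the hemoglobin genes, -0.12 (adjusted p = 0.17) after centring and -0.27 (adjusted p = 0.116) without Ortho replicates 2 and 3.

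**Figure D4:**
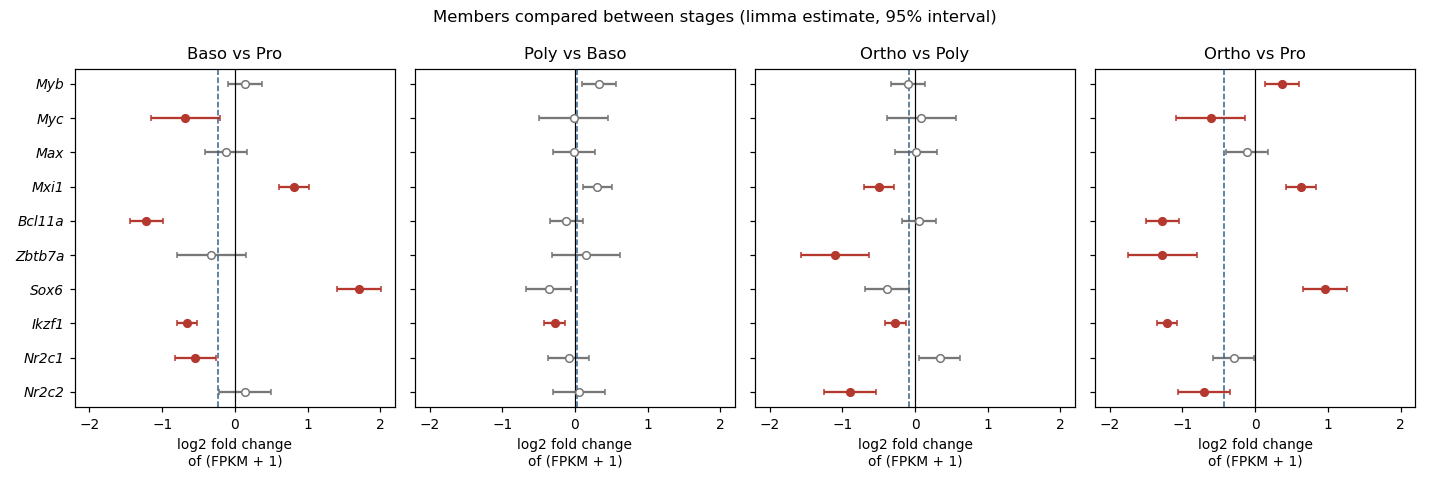
Log2 fold change of FPKM + 1 (limma estimate with 95% interval, linear axis) of the 10 genes in 4 comparisons, filled red where the adjusted p was under 0.05 and open gray otherwise. The dashed line is the median of all 12994 genes tested, which lies at -0.42 in Ortho vs Pro. Bcl11a, Zbtb7a, Ikzf1, Nr2c2 and Myc lie below it there, Max and Nr2c1 between it and 0, and Sox6, Mxi1 and Myb above 0.

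Nr2c1 (TR2, chr10:94148023-94197211, plus strand) was the lowest of the 10 genes, at 1.71, 2.22 and 2.71 FPKM in Pro, then 1.03, 1.39 and 1.15 in Baso, 1.02, 1.15 and 1.01 in Poly and finally 1.68, 1.54 and 1.59 in Ortho. Baso and Poly overlapped and lay below Pro and Ortho. It fell by 0.54 ± 0.13 (SE) in Baso vs Pro (adjusted p = 0.0035), a scale on which low genes appear to change less, and after centring the difference was -0.25 (adjusted p = 0.117). Ortho vs Poly was 0.34 (adjusted p = 0.0769), which passed without the hemoglobin genes at 0.44 (adjusted p = 0.0193) and after centring. Ortho vs Pro was -0.29 (adjusted p = 0.0536), and it passed at -0.41 (adjusted p = 0.011) without Pro replicate 1 and at -0.53 (adjusted p = 0.00223) at the same sum, while its sign turned to 0.03 without the hemoglobin genes.

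Nr2c2 (TR4, chr6:92091390-92174294, plus strand), the partner of NR2C1, was higher than it per length at every stage. It was at 14.1, 11.7 and 11.2 FPKM in Pro, then 14.0, 11.9 and 15.0 in Baso, 14.2, 13.1 and 15.2 in Poly and finally 9.86, 6.30 and 5.81 in Ortho. The first 3 stages overlapped and all Ortho libraries were lower. It fell by 0.90 ± 0.16 (SE) in Ortho vs Poly (adjusted p = 0.00137), lower under every scaling, and the difference was -0.48 (adjusted p = 0.0888) without Ortho replicates 2 and 3. Baso vs Pro did not pass as deposited (adjusted p = 0.493), but passed at 0.43 both without the hemoglobin genes (adjusted p = 0.044) and after centring (adjusted p = 0.0337), and was -0.030 at the same sum. Ortho vs Pro was -0.70 (adjusted p = 0.00211), which did not pass without the hemoglobin genes (-0.26), after centring (-0.31) or without those libraries (-0.29). Of its exonic bases 31.2% are shared with the antisense Gm44249 and with Mrps25 on the other strand, and no source used here states whether counting used strand, so reads of these genes cannot be told apart. For Myb, Mxi1 and Bcl11a the shared exonic bases were 6.26%, 2.84% and 2.40%.

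Genes of the corepressors that BCL11A, ZBTB7A and the NR2C pair use were mostly lower by count in Baso vs Pro and Ortho vs Pro as deposited. This list, too, was chosen with earlier results of these data known. Of 17 corepressor genes, among them subunits of NuRD and LSD1-CoREST and the DNA methyltransferase Dnmt1, 12 were lower and none higher in Baso vs Pro, and 15 were lower and none higher in Ortho vs Pro. Of all genes tested, 42.1% were lower and 14.9% higher in Baso vs Pro, and 53.2% lower and 22.7% higher in Ortho vs Pro. In Poly vs Baso 4 of the 17 were lower and none higher, against 5.77% and 6.58% of all genes. In Ortho vs Poly 12 were lower and none higher, against 21.7% and 4.43%. The median was -1.14 in Ortho vs Pro beside -0.42 over all genes, and 13 were lower and 2 higher both without hemoglobin genes and after centring. Over all genes, 4520 of 12988 were lower without hemoglobin genes and 4616 of 12994 after centring. In Baso vs Pro the count depended more on the scaling, with 7 lower and 3 higher without hemoglobin genes, where 3166 of all 12988 genes were lower and 3512 higher. The list median was then -0.05 beside 0.03 over all genes. Dnmt1 had means of 129, 109, 86.9 and 45.9 FPKM from Pro to Ortho and fell by 1.47 over the course (adjusted p = 2.55e-08). Mta2, a NuRD subunit, went from 137 to 50.8 FPKM (-1.41, adjusted p = 1.99e-08), Mbd2, a methyl-CpG binding protein of NuRD, from 153 to 60.5 (-1.33) and Rbbp7, a histone chaperone subunit, from 129 to 51.5 (-1.29). Gatad2b, a NuRD subunit (0.15), did not pass in Ortho vs Pro. The hemoglobin share given above moved at the same steps.

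The adult globin transcripts, the genes left active, rose while the embryonic ones stayed at or near the bottom of the scale. Hbb-bs was at 8225, 13138 and 8547 FPKM in Pro, then 50530, 56061 and 46346 in Baso, 51261, 58731 and 55515 in Poly and finally 78381, 97265 and 84934 in Ortho. Its log2 fold change was 2.38 in Baso vs Pro (adjusted p = 3.7e-06) and 3.15 in Ortho vs Pro (adjusted p = 8.4e-08). Hbb-bt, Hba-a1 and Hba-a2 passed at the same steps, at 2.77, 2.89 and 2.97 in Ortho vs Pro, but adult copies are near identical, so reads may be split between them. Embryonic Hbb-y was at 0.496, 0.274 and 0 FPKM in Pro, then 0.337, 0.492 and 0.283 in Baso, 0.268, 0.153 and 0.350 in Poly and finally 0.301, 0.453 and 0.789 in Ortho. Hbb-bh1 did not exceed 0.671 in any library and Hbb-bh2 0.158, and these genes were not tested. Hba-x was at 1.17, 1.17 and 1.57 FPKM in Ortho and at 0.333 to 0.531 in Pro, and since it passed the filter through the Ortho libraries alone, no test is given for it. No embryonic globin exceeded 1.57 FPKM in any library.

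**Figure D5:**
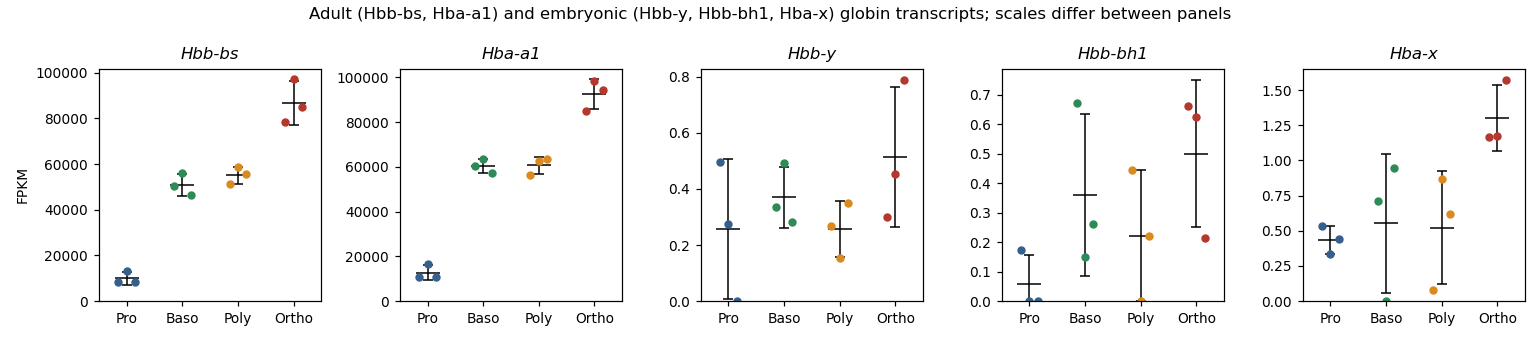
FPKM (linear axes from 0, scales differ by several orders of magnitude between panels) of adult Hbb-bs and Hba-a1 and of embryonic Hbb-y, Hbb-bh1 and Hba-x in each library by stage, with the stage mean and SD (n = 3). The adult genes reach at least 78381 FPKM in Ortho, and no embryonic gene exceeds 1.57 FPKM in any library.

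Over the 12 libraries the log2 levels of some of the 10 genes ran in parallel, as a description over points that share stage and library composition. Bcl11a had a Pearson r of 0.90 with Ikzf1 and of -0.89 with Sox6, and Mxi1 had an r of 0.86 with Sox6 and of -0.89 with Bcl11a (n = 12 libraries). Among all other genes with a stage mean of at least 5 FPKM, the closest to Myb were Lrmp (r = 0.957), Prg2 (0.954) and Camkk2 (0.946). Prg2 encodes eosinophil major basic protein and had a mean of 654 FPKM in Pro and 960 in Poly. The closest to Bcl11a were Rtraf (0.993), Pias2 (0.992) and Zmiz2 (0.992), and the closest to Ikzf1 were Cs, the citrate synthase gene (0.998), Aaas (0.996) and Mto1 (0.996). Gtpbp2 (0.980), D5Ertd579e (0.974) and Galnt10 (0.974) were closest to Sox6, and Ptgs1 (0.986), Hist1h2bg (0.986) and Hist1h2bc (0.980) to Mxi1. For Zbtb7a they were Ap2b1 (0.951, but 0.389 after centring), Atad2 (0.938) and Ctbp1 (0.938), and for Nr2c2 Pacs2 (0.961), Cdca2 (0.949) and Cramp1l (0.947). Rsrc1 (0.951), Gorasp1 (0.907) and Gpalpp1 (0.906) were closest to Myc, and Got1 (0.851), Parp10 (0.834) and Snx14 (0.825) to Max. The genes most like Nr2c1 were the predicted Gm10293 (0.972), Gm14760 (0.956) and Gm12070 (0.956).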

How the data were processed

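RNA of sorted bone marrow erythroblasts was sequenced as paired reads of 150 bases. The authors trimmed reads with cutadapt and Trimmomatic, aligned them to mm10 with HISAT2 and counted with SAMtools and featureCounts, and deposited 1 FPKM value per gene and library, not pooled. The tool that made the FPKM, the annotation release, tool versions and strand setting are not given in the sources used here. The labels and the paper's methods name different library kits. The authors tested counts with DESeq2, which FPKM values do not allow.

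All 12 value columns were assigned to libraries by title (0 columns were without a sample). Low FPKM values did not fall into steps (a median of 6.52% of log2 ratios in the most common bin of width 0.1 over 66 library pairs), so depth and counting error are unknown, and precision is given by the spread over 3 libraries. Genes with at least 1 FPKM in at least 3 libraries were tested (12994, all 10 members included) on log2(FPKM + 1), two-sided, for 4 comparisons, by a limma fit (version 3.58.1, R version 4.3.3) of all 12 libraries allowing a variance trend. Such fold changes understate the change of low genes. With 3 against 3 an exact permutation test cannot go below a p of 0.1. In simulated data for Ortho vs Pro, 200 of 12994 genes were changed. Of those changed by 1 on the log2 scale 86.7% were recovered, and of those changed by 2 96.8%, with 9 false calls. The simulation had independent noise and no shift in library composition, and far more genes passed in the real comparison. Its rates therefore do not describe these data. The named genes were the 10 members, from each list the 4 highest by mean FPKM and the 2 most changed in Ortho vs Pro (any gene of a list of 10 or fewer), all globins, and the 3 genes most correlated with each member. Gatad2b and Nme2 were named after their values were seen, and values of 1 corepressor gene are not reported here. The members and gene lists were chosen with earlier results of these data known.

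Replicate numbers were checked for pairing by correlating deviations from stage means. Same-numbered libraries of Baso and Poly correlated at 0.182 to 0.238, those of Baso and Ortho at 0.156 to 0.264, those of Poly and Ortho at 0.156 to 0.319, and Pro with any later stage at 0.00524 to 0.0968. Same-numbered libraries of the last 3 stages thus deviated together weakly, and Pro less so. No correlation of differently numbered libraries was computed, so pairing was not established, and what a number stands for is not stated. Alternatives were other pseudocounts, filters, scalings, the replicate block, leaving out libraries and fits of the compared stages alone. Positions and exonic overlap came from GENCODE M21 (29750 of 29838 identifiers matched) and promoters from RefSeq, analysed with Python 3.11.15.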

Additional observations from a re-analysis of the deposited data

How the results depend on the processing

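Over the alternatives tried, 594 of the gene differences recomputed kept their direction and their side of the threshold, 26 no longer passed, 27 newly passed and 29 turned sign, and the causes were not tested. The turned signs lay on differences that had not passed. Rescaling to the same sum gave Myb -0.044 and Nr2c2 -0.030 in Baso vs Pro, and Myc -0.095, Max -0.17 and Bcl11a -0.12 in Ortho vs Poly. Without the hemoglobin genes Myb was 0.050 in Ortho vs Poly, Myc 0.015 and Max 0.017 in Poly vs Baso, Max 0.19 in Baso vs Pro and 0.37 in Ortho vs Pro, and Nr2c1 0.027 in Ortho vs Pro. Centring gave Myb 0.057 in Ortho vs Poly, Max 0.18 in Baso vs Pro and 0.28 in Ortho vs Pro, and Nr2c1 0.10 in Ortho vs Pro. Without both Ortho libraries labelled only as erythroblasts, Myc was -0.36 in Ortho vs Poly and Max 0.088 in Ortho vs Pro. When each library was left out in turn, Poly vs Baso ranged from -0.20 to 0.12 for Myc, from -0.098 to 0.084 for Max, from -0.10 to 0.31 for Zbtb7a and from -0.036 to 0.12 for Nr2c2. Ortho vs Poly ranged from -0.12 to 0.31 for Myc, from -0.086 to 0.15 for Max and from -0.023 to 0.15 for Bcl11a, and Ortho vs Pro from -0.22 to 0.016 for Max.

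The number of the 10 genes passing was 6 in Baso vs Pro, 1 in Poly vs Baso, 4 in Ortho vs Poly and 8 in Ortho vs Pro, and with a log2 fold change of 1 or more in size it was 2, 0, 1 and 3. For Poly vs Baso it was 2 with a pseudocount of 5, 2 with a mean FPKM filter of 5, 3 without the hemoglobin genes and 3 in a fit of the 2 stages compared, and it ranged from 0 to 1 when each library was left out. Under the replicate block it was 2 in the fit of all libraries and 4 in that of Baso, Poly and Ortho, and the block changed no call of the 10 genes other than those given with Myb, Mxi1 and Sox6. Ortho vs Poly had 1 left, Zbtb7a, without both Ortho libraries labelled only as erythroblasts, a fit in which 1 Ortho library takes its spread from the other stages. Among the gene lists, the network partners passing in Ortho vs Pro were 4 without the hemoglobin genes instead of 7. The MYB paralogs passing were 0 without those genes in Baso vs Pro and 1 at the same sum in Ortho vs Pro. For the family relatives Baso vs Pro gave 0 at the same sum, 4 without hemoglobin genes and 5 after centring, and Ortho vs Pro gave 2 at the same sum. The fetal RNA-binding proteins gave 0 at the same sum in both comparisons. Over all genes, 7405, 1605, 3397 and 9857 passed in the 4 comparisons and 1347, 67, 762 and 3915 with that size required. Poly vs Baso had 963 without a filter, 2863 with the replicate block among Baso, Poly and Ortho, and 570 to 714 when Baso replicate 2 or 3 or any Poly library was left out, and Ortho vs Poly had 2080 without both Ortho libraries labelled only as erythroblasts. Of the genes passing in Baso vs Pro 26.2% were higher as deposited, 52.6% without hemoglobin genes, 56.5% after centring and 14.8% at the same sum. In Poly vs Baso these shares were 53.3%, 64.5%, 35.0% and 50.2%, and in Ortho vs Poly 16.9%, 37.0%, 42.5% and 7.68%. Without depth, no counting error can be set beside genes as low as Nr2c1 or the embryonic globins.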

Other observations

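Relatives of the switching factors were mostly low. Of 12 genes listed (for SOX6, IKZF1, NR2C1, ZBTB7A and BCL11A), 10 were matched and 6 tested, and 3 were higher and 1 lower in Ortho vs Pro, with a median log2 fold change of 0.40. Among all genes tested, 22.7% were higher and 53.2% lower. The split was 1 and 1 at the same sum, and 5 and 1 without the hemoglobin genes and after centring. Ikzf3 (Aiolos), a lymphoid relative of Ikzf1, had a mean of 3.39 ± 0.715 FPKM in Pro and 7.59 ± 0.983 in Ortho (SD, n = 3) and rose by 0.98 (adjusted p = 0.000117), higher under every scaling. Ikzf5 (Pegasus) fell by 0.59 in Ortho vs Poly (adjusted p = 0.0013), from 13.1 ± 2.19 to 8.31 ± 0.46 FPKM. Zbtb7b (ThPOK) was at 13.3 to 19.5 FPKM in Pro and reached 21.7 in Ortho, a difference of 0.40 (adjusted p = 0.00947) that was 0.053 (adjusted p = 0.72) at the same sum. Bcl11b, Zbtb7c, Ikzf4 and Sox5 were below the filter, and Nr2f1 and Nr2f2 were not analysed here. The B cell markers summed to 85.6 to 144 FPKM in Pro and 203 to 284 in Ortho beside the rise of Ikzf3, and their part in it was not tested.

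Of 5 RNA-binding proteins of the fetal programme, only Lin28a passed the filter. Its mean was 4.28 ± 0.738 FPKM in Pro, 8.85 ± 2.71 in Poly and 7.29 ± 1.18 in Ortho, and Ortho vs Pro was 0.65 (adjusted p = 0.0164), or 0.34 (adjusted p = 0.184) at the same sum. Lin28b, a fetal regulator upstream of Bcl11a translation in human erythroid cells, and Igf2bp1 were listed at or near 0, with means of at most 0.016 FPKM at any stage.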
